A study of Mus musculus with 4 samples.

Results

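The 54 genes described here code for the machinery that folds new secretory proteins in the endoplasmic reticulum (ER), ships them to the Golgi and responds when that load grows. They were taken as a named list, drawn up with earlier results of these data known, and all 54 were found among the 53465 genes counted in each library. The libraries came from cells sorted as Fgf10-positive from the submandibular salivary gland (SMG) of mice. All the mice were of strain C57BL/6J and carried Fgf10CreERT2:Rosa26Tomato fl/fl, so that tamoxifen given shortly before collection turned on the red reporter in cells in which the Fgf10 promoter was active at that time. The adult group (2 libraries) was collected at postnatal day 60 after tamoxifen at days 57 and 58, and the pup group (2 libraries) at postnatal day 7 after tamoxifen at days 4 and 5. The dose was 0.1 mg per g of body weight at both ages. The labels do not say whether replicates of an age came from separate animals, so the p-values below measure only the spread between these libraries, which may be technical.

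Proteins bound for secretion enter the ER through the Sec61 translocon, lose their signal peptide to the signal peptidase, and fold with the help of chaperones and disulfide isomerases. Misfolded chains are pulled back to the cytosol and degraded, whereas folded cargo leaves in vesicles coated with COPII, and chaperones that escape are returned from the Golgi by KDEL receptors. When unfolded protein builds up, the sensors ATF6, IRE1 (Ern1) and PERK (Eif2ak3) start the unfolded protein response, in which the transcription factors ATF6, XBP1 and ATF4 raise many of these genes. Salivary acinar cells and collagen-making fibroblasts are both known for heavy use of this pathway.

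The promoters of these genes hold known response elements, and 7 that hold a match are printed here, 4 of abundant or stress-induced genes (Hspa5, Hsp90b1, Calr and Herpud1) and the 3 with a UPRE. The windows are RefSeq's, in GRCm38.p6, each 300 bases long and reaching from 250 bases before to 50 bases after the annotated start. They were available for 41 of the 54 genes. Missing were Atf6, Creb3l1, Derl1, Ern2, Hyou1, Kdelr2, Lman1, Manf, Sec11c, Sec61a1, Spcs3, Ssr2 and Tram1. Each sequence is written 5′ to 3′ on the strand of its gene, and capitals mark matches to the 4 motifs searched on both strands.
Hspa5, chr2:34771840-34772139, plus strand, ERSE: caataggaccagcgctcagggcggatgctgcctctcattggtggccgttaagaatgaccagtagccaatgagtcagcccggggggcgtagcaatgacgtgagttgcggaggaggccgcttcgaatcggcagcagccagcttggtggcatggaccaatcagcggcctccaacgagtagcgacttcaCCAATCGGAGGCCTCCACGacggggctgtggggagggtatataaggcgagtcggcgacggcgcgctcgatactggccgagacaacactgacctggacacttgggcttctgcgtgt
Hsp90b1, chr10:86705395-86705694, minus strand, ERSE in both directions: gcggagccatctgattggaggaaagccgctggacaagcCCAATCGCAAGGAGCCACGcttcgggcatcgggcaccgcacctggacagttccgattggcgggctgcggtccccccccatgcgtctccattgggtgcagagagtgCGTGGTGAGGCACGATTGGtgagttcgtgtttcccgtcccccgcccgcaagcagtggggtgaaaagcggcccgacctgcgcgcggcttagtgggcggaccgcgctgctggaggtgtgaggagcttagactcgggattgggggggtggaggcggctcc
Calr, chr8:84846882-84847181, minus strand, ERSE: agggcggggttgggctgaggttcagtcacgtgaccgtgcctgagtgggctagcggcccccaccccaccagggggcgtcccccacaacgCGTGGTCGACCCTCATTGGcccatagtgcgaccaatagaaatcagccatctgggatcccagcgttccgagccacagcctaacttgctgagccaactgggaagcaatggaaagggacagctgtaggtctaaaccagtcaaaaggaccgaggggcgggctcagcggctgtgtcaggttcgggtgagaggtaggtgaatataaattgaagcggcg
Herpud1, chr8:94386179-94386478, plus strand, ERSE-II and CARE: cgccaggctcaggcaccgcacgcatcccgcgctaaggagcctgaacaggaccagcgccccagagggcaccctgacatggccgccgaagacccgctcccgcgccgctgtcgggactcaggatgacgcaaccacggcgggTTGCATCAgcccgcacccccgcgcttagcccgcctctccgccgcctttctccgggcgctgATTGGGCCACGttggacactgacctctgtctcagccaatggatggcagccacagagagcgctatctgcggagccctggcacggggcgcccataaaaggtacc
Sec23a, chr12:59011968-59012267, minus strand, UPRE: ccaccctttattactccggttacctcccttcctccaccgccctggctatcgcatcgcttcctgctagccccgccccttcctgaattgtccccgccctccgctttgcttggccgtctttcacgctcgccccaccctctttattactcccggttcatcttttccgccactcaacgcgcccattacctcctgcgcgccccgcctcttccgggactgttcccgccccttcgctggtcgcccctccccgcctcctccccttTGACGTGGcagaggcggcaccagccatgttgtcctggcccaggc
Sec24d, chr3:123267246-123267545, plus strand, UPRE: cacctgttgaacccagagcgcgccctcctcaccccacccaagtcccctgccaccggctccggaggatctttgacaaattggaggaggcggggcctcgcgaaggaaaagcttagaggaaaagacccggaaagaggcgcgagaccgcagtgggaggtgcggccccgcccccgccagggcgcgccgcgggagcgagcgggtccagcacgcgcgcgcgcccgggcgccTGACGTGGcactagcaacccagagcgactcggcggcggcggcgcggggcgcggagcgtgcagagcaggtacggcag
Kdelr3, chr15:79516158-79516457, plus strand, UPRE: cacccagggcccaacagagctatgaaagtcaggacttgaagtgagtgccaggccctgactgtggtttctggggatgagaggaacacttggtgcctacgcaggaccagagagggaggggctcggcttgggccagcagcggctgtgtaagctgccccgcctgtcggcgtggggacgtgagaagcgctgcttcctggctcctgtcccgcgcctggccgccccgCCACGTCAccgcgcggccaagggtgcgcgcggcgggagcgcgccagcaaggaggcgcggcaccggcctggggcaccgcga

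The motifs were the ER stress response element ERSE (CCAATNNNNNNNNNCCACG), its variant ERSE-II (ATTGGNCCACG), the XBP1-type unfolded protein response element UPRE (TGACGTGG) and an ATF4-type element CARE (TGATGNAA). ERSE was found in 9 of the 41 listed genes with a window (22.0%) against 37 of all 27025 genes with a window (0.137%). Its holders were Hspa5, Hsp90b1, Calr, Canx, Dnajc3, Creld2, Pdia6, Syvn1 and Derl3. ERSE-II was found in Dnajb11 and Herpud1 (4.88% against 0.0444%). UPRE was found in Sec23a, Sec24d and Kdelr3 (7.32% against 0.714%), and CARE in Herpud1 alone (2.44% against 4.51%). The ERSE matches began between 212 bases (Hsp90b1) and 44 bases (Syvn1) before the start, whereas the UPRE matches lay close to it, beginning 30 bases before it in Kdelr3, 26 bases before it in Sec24d and 6 bases after it in Sec23a. A match describes letters in a window, not a bound site. The motifs were chosen as known response elements of this pathway, so a higher share among its genes is not a result of these data.

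The libraries held 7289792 to 21490686 gene counts. Pup replicate 1 stood apart from the other 3. In it 76.7% of tallied reads fell outside annotated genes, against 9.70% to 10.6% in the others, and 44734 genes had a count, against 16805 to 19764. Olfactory receptor genes, which a salivary gland is not known to use, had counts in 96.7% of 1092 genes in that library and in 1.56% to 7.78% in the others. Scaled by exon length, counts of these olfactory genes put the background in pup replicate 1 at 24.7% of its gene counts. Over the 54 secretory genes the median was 9.53%, but for Ern2, Bhlha15, Spdef, Sec11c and Derl3 the count was no more than 2 times its expected background. Fgf10 itself stood at 195, 40.3, 27.3 and 24.1 CPM (counts scaled to the size of the library, with TMM factors) in adult replicates 1 and 2 and pup replicates 1 and 2, the order in which all 4 values are given below.

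For most of the secretory genes the difference between the ages was smaller than the spread between libraries of an age. Of the 54, 53 had enough counts to be tested, and edgeR's quasi-likelihood test with Benjamini-Hochberg adjustment called none higher and none lower in adult. It called 0% of all 16320 tested genes in either direction, the smallest adjusted p being 0.141, so that the count of 0 says little about these genes. At an unadjusted p under 0.05, edgeR gave 1 secretory gene higher and 0 lower, against 5.99% and 8.49% of all tested genes. DESeq2 called 1 of the secretory genes, Sec11c, higher and 0 lower. In the run on all genes DESeq2 called 2.37% higher and 6.71% lower of the 17528 to which it gave an adjusted p. In the run on only the genes that edgeR tested it called 3.97% and 5.61% of 15370 such genes.

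The log2 fold change, adult over pup, was positive for 34 of the 53 genes and negative for 19, with a median of 0.27 beside -0.24 over all tested genes. Both adult libraries lay above both pup libraries for 14 of the 53 and below them for 4, while the ages overlapped for 35. The same held for 21.8% and 27.1% of all tested genes. When every library was scaled to its median secretory gene, 12 genes stood above and 15 below, beside 13.4% and 32.3% of all genes. With 1 library left out, a separation of the ages is easier to meet. Secretory genes with the adults above then numbered 23 without adult replicate 1 (30.5% of all tested genes) and 37 without pup replicate 2 (35.7%). Those with the adults below numbered 14 without adult replicate 2 (41.2% of all tested genes) and 28 without pup replicate 1 (40.2%). Without pup replicate 1 the median was -0.20, and without pup replicate 2 it was 0.95. Scaled to the median secretory gene it was -0.05, beside -0.79 over all tested genes. That scaling levels the secretory genes by construction, so neither this median nor the role medians on that scale weigh against the values above.

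The spread between pups was the larger. The median secretory gene stood at 120, 133, 61.3 and 147 CPM, lowest in pup replicate 1, whereas the median of all tested genes was 14.1, 18.3, 19.4 and 16.6 CPM. Pup replicate 2 exceeded pup replicate 1 for 46 of the 53 genes, with a median ratio of 2.32, and 10 genes lay within 1.5-fold of each other. In the adults replicate 2 exceeded replicate 1 for 41 genes, with a median ratio of 1.30, and 33 lay within 1.5-fold. Together the 54 genes took 0.902%, 1.01%, 0.757% and 1.22% of the gene counts. In bulk samples fewer cells of a type and less RNA per cell cannot be told apart. Pup replicate 1 also carried the background described above, put at 24.7% of its gene counts. With it subtracted the median log2 fold change of the secretory genes was 0.18, beside -0.08 over all tested genes. The part of this background in the low values was not tested.

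**Figure D1:**
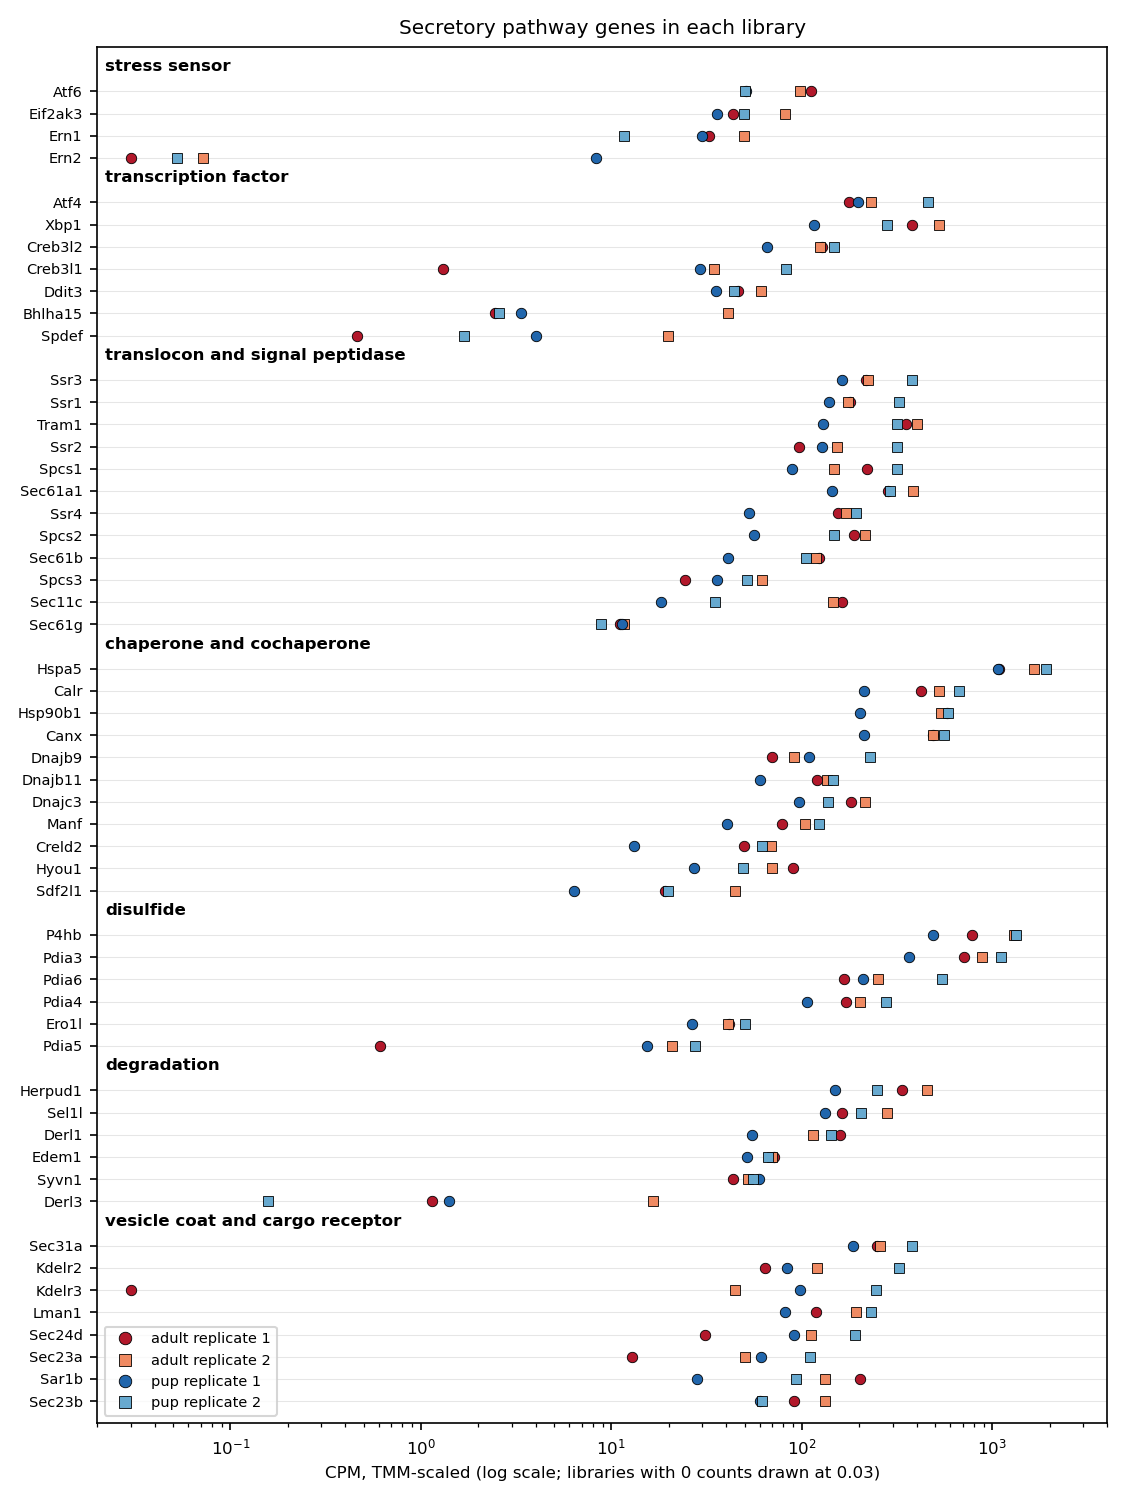
Level of each of the 54 secretory pathway genes in each of the 4 libraries, by role; the horizontal axis is CPM on a log scale, circles are replicate 1, squares replicate 2, red adult and blue pup. Pup replicate 1 is most often the lowest point, and single libraries stand far from the other 3 for Kdelr3, Pdia5, Bhlha15, Spdef and Derl3.

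The stress sensors were the role with the highest median log2 fold change, 0.99, though no sensor passed the test. That median was 0.46 with library totals and 0.20 scaled to the median secretory gene, and on the latter scale Atf6 and Ern1 overlapped between the ages. Atf6, an ER membrane protein that is cut in the Golgi to release a transcription factor, stood at 111, 98.0, 50.8 and 50.02 CPM. Its replicates lay close together at both ages and the adults were above the pups, with a log2 fold change of 1.05 ± 0.44 (SE, n = 2 libraries per age) and an edgeR adjusted p of 0.355. Ern1, the kinase and RNase IRE1 that splices the Xbp1 message, stood at 32.7, 49.9, 30.0 and 11.7 CPM. Its adults were again higher, but adult replicate 1 and pup replicate 1 differed little (0.99 ± 0.65, edgeR adjusted p = 0.576). Eif2ak3, the kinase PERK that slows translation, overlapped between the ages at 43.4, 81.9, 35.8 and 49.8 CPM. Ern2, the IRE1 form of mucus-making epithelium, was not tested: its counts were 0, 1, 77 and 1, with 41.4 counts expected from background in pup replicate 1.

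The 7 transcription factors had a median log2 fold change of 0.43, which was -0.27 without adult replicate 2. Xbp1 and Ddit3 had both adults above both pups, and the other factors overlapped. Xbp1, the factor made from the message that IRE1 splices, stood at 380, 522, 116 and 280 CPM. Both adults were higher, by a log2 fold change of 1.19 ± 0.72 (edgeR adjusted p = 0.536), or 0.68 without pup replicate 1. The gene counts do not separate spliced from unspliced Xbp1. Ddit3, the factor CHOP of prolonged stress, stood at 46.4, 60.7, 35.4 and 44.3 CPM, so that adult replicate 1 and pup replicate 2 nearly met. Atf4, the factor translated when PERK is active, was highest in a pup, at 176, 230, 197 and 459 CPM, with a log2 fold change of -0.69 ± 0.67.

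Of the other factors, Bhlha15, Spdef and Creb3l1 were carried by single libraries, whereas Creb3l2 was not. Bhlha15, the factor MIST1 that builds the secretory apparatus of acinar cells, stood at 2.45, 41.2, 3.36 and 2.57 CPM. Spdef, a factor of secretory and goblet cells, stood at 0.460, 19.9, 4.004 and 1.68 CPM. Both were high in adult replicate 2 only, and in pup replicate 1 the 31 counts of Bhlha15 were fewer than the 48.8 expected from background. Creb3l1, the factor OASIS of matrix-secreting cells, was instead low in adult replicate 1 only, at 1.30, 34.5, 29.3 and 82.7 CPM (log2 fold change -1.65 ± 1.32, edgeR adjusted p = 0.660). Its relative Creb3l2 stood at 128, 125, 65.6 and 148 CPM, with the adults inside the range of the pups.

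The translocon and signal peptidase genes held the 1 gene that DESeq2 called. Sec11c, a catalytic subunit of the signal peptidase, stood at 162, 145, 18.3 and 35.2 CPM. The adults lay close together and far above both pups, by a log2 fold change of 2.52 ± 0.55. The adjusted p was 0.213 in edgeR, 0.0135 in DESeq2 on all genes and 0.000492 in DESeq2 on the genes edgeR tested. In pup replicate 1, 95.1 of its 169 counts were expected from background, and the log2 fold change was 2.71 after that background was subtracted and 2.12 without that library. It ranged from 2.12 to 3.07 with each library left out in turn.

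The other catalytic subunit, Sec11a, which was not on the list of 54, stood at 142, 146, 92.3 and 197 CPM, the adults inside the range of the pups. The accessory subunits differed among themselves. Spcs2 had both adults above both pups at 188, 215, 55.9 and 147 CPM (0.99 ± 0.63, edgeR adjusted p = 0.561). Spcs1 (219, 147, 88.4 and 315 CPM) and Spcs3 (24.2, 61.4, 35.7 and 51.5 CPM) overlapped between the ages. Of the channel itself, Sec61b stood at 123, 119, 40.8 and 105 CPM with the adults above, by less than the gap between the pups. Sec61a1, the pore subunit, stood at 284, 383, 143 and 291 CPM and Sec61g at 11.0, 11.6, 11.4 and 8.77 CPM, both with overlapping ages.

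Tram1, a membrane protein beside the translocon, stood at 353, 404, 129 and 316 CPM with the adults above (0.76 ± 0.69, edgeR adjusted p = 0.704). All 4 subunits of the translocon-associated TRAP complex, Ssr1, Ssr2, Ssr3 and Ssr4, overlapped between the ages, with log2 fold changes of -0.82 (Ssr2) to 0.40 (Ssr4). Each of them was highest in pup replicate 2. In the role as a whole 7 of 12 genes were positive, with a median of 0.28. That median was -0.031 without pup replicate 1, -0.0072 when scaled by library totals and -0.022 when scaled to the median secretory gene.

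The most abundant members were chaperones and disulfide isomerases, and their ages overlapped. Per kilobase of exon P4hb, Hspa5 and Pdia3 were the 3 highest of the 54 in every library, and together they took 27.1% to 32.2% of the counts of the whole set. Hspa5 (GRCm38 chromosome 2, 34771970 to 34777547) codes for BiP, the main ER chaperone and the usual readout of ER stress. It stood at 1085, 1651, 1070 and 1909 CPM, so that the replicate 1 libraries nearly coincided and the log2 fold change was -0.12 ± 1.03 (edgeR adjusted p = 0.974). The ERSE in its promoter is printed above.

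Hsp90b1 (GRP94), with 2 ERSE matches, stood at 581, 538, 201 and 587 CPM. Calr and Canx, the lectins that hold sugar-tagged proteins until folded, stood at 422, 523, 211 and 672 CPM and at 487, 487, 212 and 556 CPM. The log2 fold changes were 0.50 ± 0.80 for Hsp90b1, 0.10 ± 0.81 for Calr and 0.34 ± 0.76 for Canx (edgeR adjusted p = 0.843, 0.974 and 0.893). In all 3 genes pup replicate 1 was lowest and pup replicate 2 highest, with both adults between them. Without pup replicate 1 the log2 fold changes of Hsp90b1, Calr and Canx were -0.07, -0.51 and -0.19.

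Among the cochaperones 2 genes separated upward and 1 downward. Hyou1 (GRP170), which exchanges nucleotide on BiP, stood at 89.4, 70.0, 27.1 and 49.3 CPM, with a log2 fold change of 1.06 ± 0.51 (edgeR adjusted p = 0.426). Dnajc3 (p58IPK), a BiP partner and PERK inhibitor, stood at 182, 214, 96.6 and 138 CPM. In both genes the adults were above the pups. Dnajb9 (ERdj4), a BiP partner that restrains IRE1, went the other way at 70.0, 91.2, 109 and 227 CPM (-1.06 ± 0.57, edgeR adjusted p = 0.480).

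The remaining 4 folding helpers overlapped between the ages. Sdf2l1, part of a BiP complex, stood at 19.2, 44.4, 6.39 and 19.8 CPM, adult replicate 1 being just under pup replicate 2. Dnajb11, Manf and Creld2 had log2 fold changes of 0.31, 0.15 and 0.66. All 3 were lowest in pup replicate 1.

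With TMM factors none of the 6 listed genes for disulfide bond formation separated the ages, and they split evenly by sign with a median of 0.03. That median was -0.02 with DESeq2's size factors, -0.10 with upper-quartile factors, -0.21 with library totals and -0.27 scaled to the median secretory gene. On that last scale 3 of the 6 (Pdia4, Pdia5 and Pdia6) had both adults below both pups, beside 32.3% of all tested genes. P4hb, the classical protein disulfide isomerase, stood at 784, 1293, 489 and 1339 CPM. Pdia3 (ERp57), which works with the lectin chaperones, stood at 714, 883, 364 and 1116 CPM. Both were highest in pup replicate 2 and lowest in pup replicate 1, with log2 fold changes of 0.18 ± 0.97 for P4hb and 0.11 ± 0.91 for Pdia3 (edgeR adjusted p = 0.960 and 0.974). Pdia6 stood at 166, 251.1, 209 and 541 CPM (-0.85 ± 0.72, edgeR adjusted p = 0.679), high in pup replicate 2 alone. Pdia4 (171, 203, 106 and 275 CPM) and the oxidase Ero1l (41.3, 41.0, 26.6 and 50.6 CPM) had both adults between the pups. Pdia5 was all but missing from adult replicate 1, at 0.613, 20.8, 15.4 and 27.5 CPM.

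Of the 6 genes of ER-associated degradation 5 had a positive log2 fold change, with a median of 0.43, and none passed the test. The median was 0.10 without pup replicate 1 and 1.03 without pup replicate 2. Herpud1, a stress-induced organiser of the degradation complex, stood at 336, 453, 149 and 249 CPM. Both adults were higher, by a log2 fold change of 0.99 ± 0.64 (edgeR adjusted p = 0.565). Edem1, a mannosidase-like lectin that picks misfolded glycoproteins, stood at 71.7, 70.1, 51.5 and 66.2 CPM, a separation of the ages with pup replicate 2 close to the adults. Syvn1 (HRD1), the ubiquitin ligase of this pathway, was the only one lower in both adults, at 43.5, 52.2, 59.8 and 55.6 CPM, by a log2 fold change of -0.27 ± 0.45 (edgeR adjusted p = 0.852).

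Sel1l, the partner of HRD1, stood at 162, 282, 132 and 204 CPM and Derl1, a channel protein, at 158, 114, 54.5 and 142 CPM. Both overlapped. Derl3, the derlin of secretory cells, was carried by adult replicate 2 at 1.15, 16.5, 1.41 and 0.158 CPM. Its 13 counts in pup replicate 1 were fewer than the 27.9 expected from background. Its log2 fold change of 3.502 ± 2.12 was 0.57 without adult replicate 2.

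**Figure D2:**
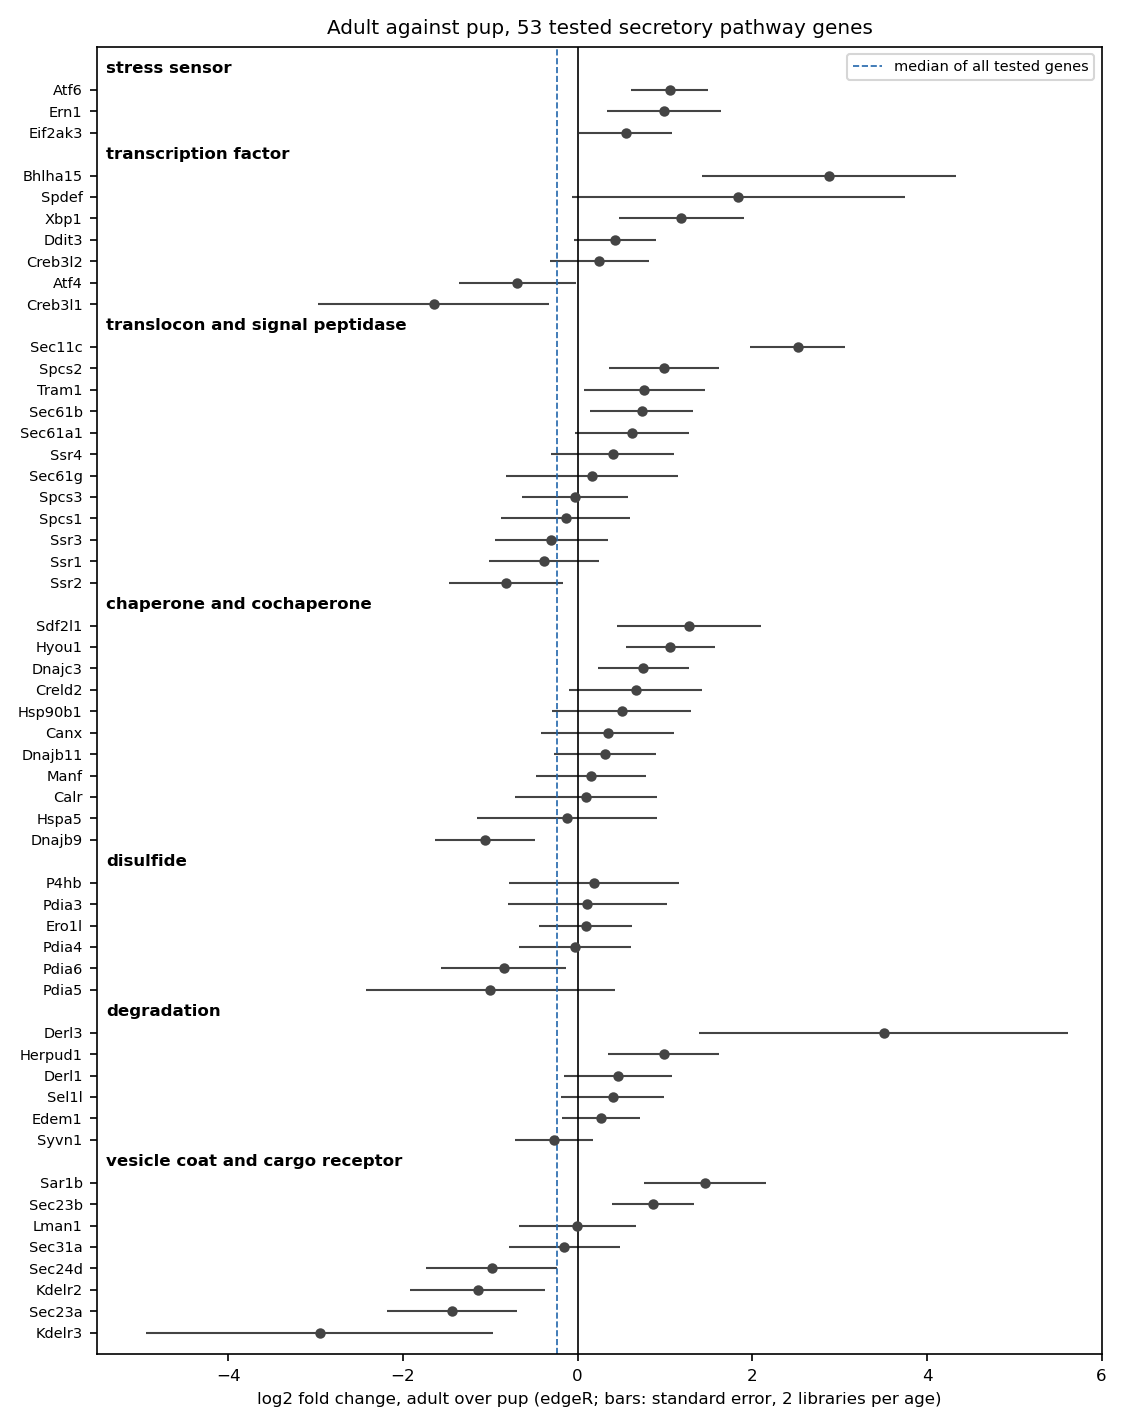
Log2 fold change, adult over pup, of the 53 tested genes by role; points are edgeR estimates, bars are standard errors over 2 libraries per age, and the dashed line is the median of all tested genes (-0.24). Sec11c has the shortest bar for its size, and the vesicle coat and cargo receptor genes spread from 1.46 (Sar1b) to -2.95 (Kdelr3).

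The vesicle coat and cargo receptor genes were the only role with a negative median log2 fold change, -0.57, which was 0.30 without pup replicate 2. They split by gene. Sar1b (chromosome 11, 51763687 to 51791925), a GTPase that starts the COPII coat, stood at 202, 133, 28.0 and 93.6 CPM. Both adults were above both pups (1.46 ± 0.70, edgeR adjusted p = 0.422), and the value was 0.84 without pup replicate 1. Sec23b, an inner coat subunit, stood at 90.9, 133, 60.6 and 61.9 CPM. Its pups nearly coincided below both adults (0.87 ± 0.47, edgeR adjusted p = 0.481).

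Sec23a (chromosome 12, 58958383 to 59012017), the other form of the same subunit, had the opposite order at 12.9, 50.3, 61.3 and 111 CPM. Both adults were below both pups, by a log2 fold change of -1.44 ± 0.74 (edgeR adjusted p = 0.459). Kdelr3 (chromosome 15, 79516411 to 79527739), a KDEL receptor, stood at 0, 44.3, 97.9 and 245 CPM. The count of 0 in adult replicate 1 allows up to 0.230 CPM (3 counts, counting error only), and the log2 fold change was -2.95 ± 1.99 (edgeR adjusted p = 0.586). With all genes of at least 1 count kept in the fit, edgeR called Kdelr3 lower (adjusted p = 0.0435). Of the 45490 genes in that fit 0.508% were called lower and 0.624% higher.

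Without adult replicate 2 edgeR called Kdelr3 and Creb3l1 lower (adjusted p = 6.93e-07 and 0.000496) and Sec11c higher (0.0463). In that fit 4.49% of all tested genes were called lower and 1.51% higher. The adult group was then the 1 library in which Kdelr3 was at 0, and its spread was taken from the pups. Sec24d, a cargo-binding coat subunit, overlapped at 31.0, 111, 90.8 and 190 CPM, and Kdelr2 at 64.2, 120, 83.7 and 325 CPM. Sec31a, of the outer coat, stood at 249, 257, 185 and 379 CPM. Lman1, the lectin cargo receptor ERGIC-53, stood at 119, 191, 81.2 and 230 CPM, with a log2 fold change of 0.00. Both had the adults between the pups.

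The 3 genes with a UPRE in the printed window were Sec23a, Sec24d and Kdelr3, and their log2 fold changes were -1.44, -0.98 and -2.95. With each library left out in turn they ranged from -2.74 to -0.81, from -2.18 to -0.35 and from -14.21 to -1.98. All 3 belong to the coat and cargo receptor role. The 9 with an ERSE had a median of 0.34 beside 0.26 for the 32 tested genes whose window had none, with 1 gene above (Dnajc3) and 1 below (Syvn1). These are descriptions of a few genes, and no test was made of them.

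Ratios of related genes within a library do not depend on the scaling of that library. There were 8 pairs, chosen after the values had been seen, so they are given without a test, as counts per kilobase of exon. The ratio of Sec23a to Sec23b was 0.184, 0.494, 1.32 and 2.33, below 1 in both adults and above 1 in both pups. For Sec24d to Sec24c it was 0.278, 0.822, 1.22 and 1.86, and for Creb3l1 to Creb3l2 it was 0.0284, 0.772, 1.25 and 1.57. Those 2 pairs were likewise split at 1.

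Kdelr3 to Kdelr2 gave 0, 0.477, 1.52 and 0.979. The opposite order was seen for Sec11c to Sec11a, at 0.772, 0.674, 0.134 and 0.121, and for Sar1b to Sar1a, at 3.42, 1.49, 0.553 and 0.838. After subtraction of the background the Sec11c ratio in pup replicate 1 was 0.0635. Derl3 to Derl1 and Ero1l to Ero1lb overlapped between the ages.

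**Figure D3:**
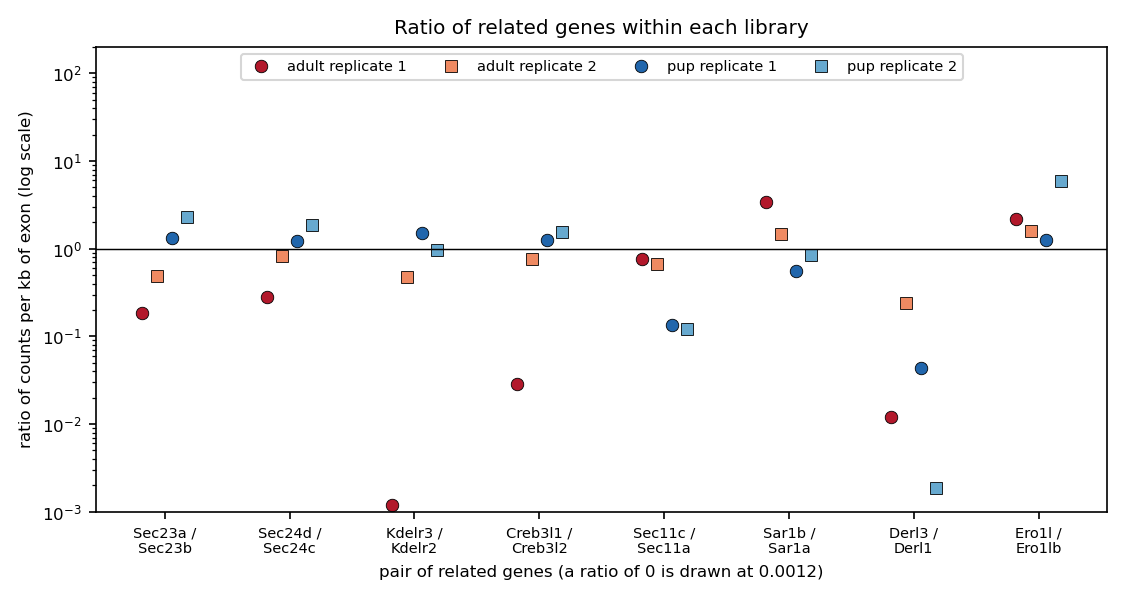
Ratio of counts per kilobase of exon between related genes within each library, on a log scale; circles are replicate 1, squares replicate 2, red adult and blue pup and the ratio of 0 is drawn at the foot of the axis. In 6 of the 8 pairs the adult points do not overlap the pup points: 4 pairs have the adults lower and 2 (Sec11c with Sec11a, Sar1b with Sar1a) have them higher.

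Marker sums of other cell types are given here beside these genes. A count in pup replicate 1 says little about a marker, here and below. In that library 96.7% of olfactory receptor genes also had counts. The 6 fibroblast markers (Col1a1, Col1a2, Col3a1, Pdgfra, Dcn and Lum), all detected in every library, summed to 1091, 21647, 25354 and 57845 CPM. Among the 53 tested secretory genes 10 were likewise lowest in adult replicate 1 and highest in pup replicate 2: Creb3l1, Atf4, Ssr2, Dnajb9, Pdia5, Pdia6, Sec23a, Sec24d, Kdelr2 and Kdelr3. Of the 53, 14 were lowest in adult replicate 1 and 27 highest in pup replicate 2. The shares of all tested genes with that order, or with either extreme alone, were not counted. The 4 nerve and glia markers had the same order at 26.7, 56.2, 81.9 and 180 CPM, with 1 at 0 in each adult and none at 0 in the pups. The 6 basal and myoepithelial markers summed to 5127, 2180, 4894 and 14222 CPM. They too were highest in pup replicate 2, but lowest in adult replicate 2. The part of these markers in those values was not tested.

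The 10 acinar markers summed to 611, 55903, 662 and 2230 CPM, with 6 at 0 in adult replicate 1 and none at 0 in the others. The sum in adult replicate 2 came mostly from Mucl2 (37832 CPM), Pip (10397 CPM) and Prol1 (7058 CPM). The list did not move as one, since 5 of the 10 (Bpifa2, Smgc, Dcpp1, Dcpp2 and Amy1) had both adults below both pups. Bhlha15, Spdef and Derl3 were among the 18 of 53 tested secretory genes highest in adult replicate 2, a peak not counted over all tested genes. The 5 endothelial markers also peaked there, at 0.0766, 831, 102 and 2.68 CPM, with 4 at 0 in adult replicate 1, none in the next 2 libraries and 1 in pup replicate 2. Here too the markers' part was not tested.

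Sec11c followed neither sum, being of like level in both adults. The 7 ionocyte markers, which name an ion-transporting epithelial cell, summed to 5997, 2896, 62.9 and 45.8 CPM and the 6 general epithelial markers to 7759, 12261, 1437 and 3374 CPM. All of them were detected in every library. The 7 duct markers summed to 12150, 19502, 580 and 1582 CPM, with 1 at 0 in pup replicate 2, and the 6 leukocyte markers to 127, 207, 90.5 and 29.2 CPM, with 1 at 0 in the same library. All 4 sums were higher in both adults. Marker by marker, both adults were above both pups for all 7 ionocyte and all 6 general epithelial markers. This held for only 3 of the 7 duct and 2 of the 6 leukocyte markers, and 4 overlapped in each of these lists. Sec11c, Sar1b, Xbp1 and Atf6 were also higher in both adults, among 14 of the 53 tested secretory genes with that order. The same order was seen for 21.8% of all tested genes. The part of the markers in the secretory genes was not tested. Plasma cells, another heavy user of this machinery, left little sign: their 6 markers were at 0 in 3 libraries and summed to 12.3 CPM in pup replicate 1. Among them Mzb1 had 12 counts there, against 17.0 expected from background.

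**Figure D4:**
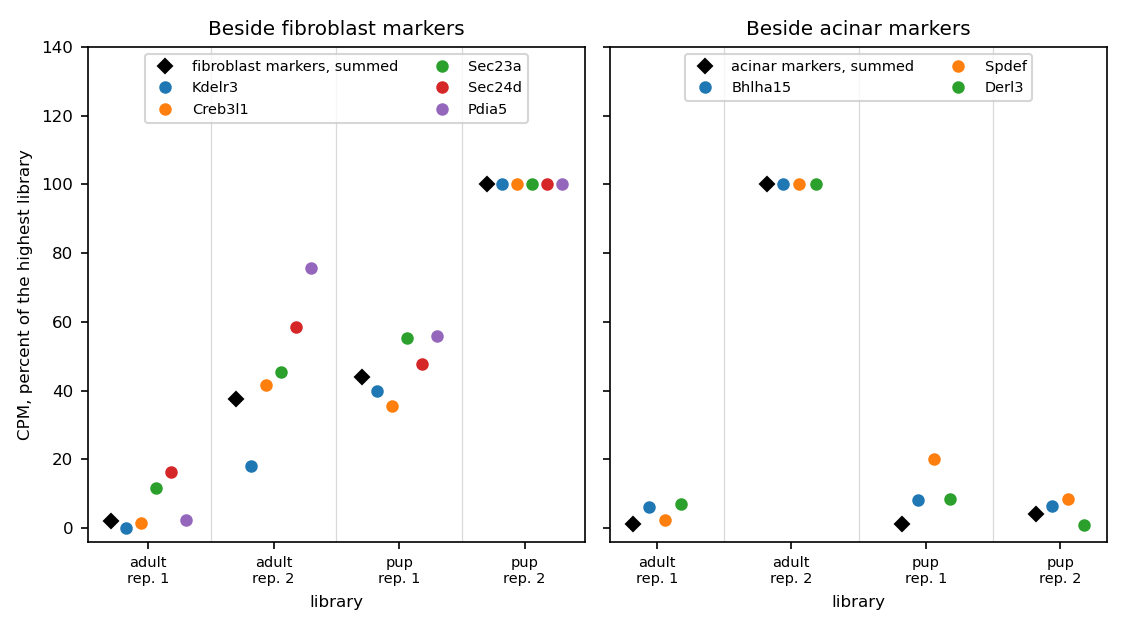
Left, 5 secretory genes beside the summed fibroblast markers, and right, 3 beside the summed acinar markers; the vertical axis is CPM as a percent of the highest of the 4 libraries, diamonds are marker sums and circles single genes. The genes shown were chosen with their values known, so a shared peak was set by the choice. The left series peak in pup replicate 2, as do 27 of the 53 tested secretory genes. The right series peak in adult replicate 2, as do 18 of the 53. There 3 of the 10 acinar markers (Mucl2, Pip and Prol1) give most of the sum. The shares of all tested genes that peak in these libraries were not counted.

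Other genes of the same pathway were taken from a wider list of 131, of which 130 were found and 128 tested. Their log2 fold changes were positive for 79 and negative for 49, with a median of 0.14. The ages were apart for 34 with the adults above and 18 with the adults below, beside 21.8% and 27.1% of all tested genes. When libraries were scaled to the median of the 54 secretory genes these were 22 and 40, beside 13.4% and 32.3%. EdgeR called none in either direction. At an unadjusted p under 0.05 it gave 3 higher (Sil1, Edem2 and Rnf5) and 3 lower (Creb3l3, Sesn2 and Uggt2). Over all tested genes 5.99% and 8.49% met that limit. DESeq2 on all genes called 0 higher and 2 lower, Creb3l3 and Uggt2, beside 2.37% and 6.71% of the genes it gave an adjusted p. Creb3l3, an ER-bound factor of liver, had counts of 0, 0, 77 and 48, with 42.1 expected from background in pup replicate 1. Uggt2, a folding sensor for glycoproteins, had counts of 43, 35, 359 and 420, with 179 expected from background.

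Of the 15 other degradation genes 14 were positive, with a median of 0.51 and 8 with both adults above. Both adults were above for 21.8% of all tested genes. Rnf5, a ubiquitin ligase of the ER membrane, stood at 59.6, 42.5, 5.95 and 18.8 CPM (2.04 ± 0.71, edgeR adjusted p = 0.284). Edem2, a mannosidase of the same family as Edem1, stood at 55.2, 59.2, 16.2 and 25.6 CPM (1.45 ± 0.51, edgeR adjusted p = 0.284). Os9, a lectin that hands glycoproteins to HRD1, stood at 312, 343, 83.2 and 178 CPM. In all 3 both adults were above both pups.

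Of 15 other chaperones and prolyl isomerases 10 were negative, with a median of -0.83, 2 above and 3 below. Over all tested genes 57.1% were negative, with 21.8% above and 27.1% below. Sil1, a nucleotide exchange factor of BiP like Hyou1, had the highest log2 fold change of the group, at 129, 131, 32.1 and 48.2 CPM (1.69 ± 0.48). Its adjusted p was 0.267 in edgeR and 0.0181 in DESeq2 on the genes edgeR tested. Fkbp2, a prolyl isomerase, stood at 201, 133, 21.0 and 85.6 CPM with the adults above, and its relative Fkbp7 at 13.7, 60.6, 81.6 and 177 CPM with the adults below. Calu, a calcium-binding ER protein, stood at 266, 402, 414 and 915 CPM, also below. Scaled to the median of the 54 genes, 2 of this group stood above and 8 below, beside 13.4% and 32.3% of all tested genes.

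In the group for translation arrest and stress output 5 of 10 other genes had both adults below both pups. The same held for 27.1% of all tested genes. Ppp1r15a (GADD34), which restores translation after PERK, stood at 273, 539, 551 and 1084 CPM. Sesn2, a stress-induced regulator of growth signalling, stood at 25.2, 44.9, 85.9 and 166 CPM (-1.85 ± 0.58), with an adjusted p of 0.284 in edgeR and 0.0299 in DESeq2 on the genes edgeR tested. Asns, the asparagine synthetase that ATF4 raises, did not share that order, at 31.2, 117, 21.6 and 30.3 CPM with both adults above. Wfs1, the ER membrane protein wolframin, stood at 49.8, 54.6, 39.7 and 32.7 CPM, likewise above.

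Of 35 other coat, cargo receptor and Golgi return genes 22 were positive. There were 8 above and 4 below, beside 21.8% and 27.1% of all tested genes. Scaled to the median of the 54 genes there were 3 and 12, beside 13.4% and 32.3%. Mia2, which helps load bulky cargo, stood at 171, 152, 88.9 and 70.1 CPM with the adults above. Gosr2, a SNARE of ER-to-Golgi vesicles, stood at 63.9, 118, 33.0 and 63.0 CPM, and Cope, a subunit of the COPI coat of return vesicles, at 266, 308, 88.0 and 247 CPM. In both the nearest adult and pup almost met. Sec24a, a cargo-binding coat subunit, stood at 22.5, 29.9, 67.1 and 51.1 CPM and Sec24b at 33.6, 50.2, 52.9 and 75.4 CPM, both with the adults below, the same order as Sec23a. Ergic2, a cycling membrane protein, was also lower in both adults, at 47.4, 47.4, 49.7 and 83.1 CPM. In the targeting group Srpr, the receptor of the signal recognition particle, stood at 351, 397, 106 and 264 CPM with the adults above. Srp68 (63.2, 97.9, 37.8 and 53.4 CPM) and Srp14 (222, 160, 60.6 and 158 CPM), protein subunits of that particle, had the same order.

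Among glycosylation genes Rpn1 stood at 384, 373, 99.1 and 349 CPM and Dad1 at 330, 331, 108 and 317 CPM, both with the adults above. Tusc3 stood at 50.7, 55.9, 64.0 and 128 CPM with the adults below. All 3 belong to the oligosaccharyltransferase, the enzyme that adds sugar chains to proteins entering the ER. The redox genes were split, with Txndc11 (90.9, 96.9, 46.1 and 62.9 CPM) and Tmx3 (60.7, 59.2, 28.1 and 57.4 CPM) above and Tmx4 (38.7, 42.6, 83.1 and 44.1 CPM) and Qsox1 (33.5, 45.7, 46.3 and 57.7 CPM) below.

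Of the 12 other sensors and transcription factors 5 had both adults above both pups, beside 21.8% of all tested genes. Atf3, an early stress factor that ATF4 can raise, was abundant at 1839, 2828, 905 and 1588 CPM. Nfe2l1, an ER-anchored factor that raises proteasome genes, stood at 235, 269, 89.6 and 210 CPM. Nfyc, a subunit of the factor that binds the CCAAT part of ERSE, stood at 61.8, 46.1, 20.0 and 34.7 CPM. None of these genes passed the edgeR test.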

How the data were processed

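The authors deposited raw read counts per Ensembl gene, 1 file per library, from SMART-Seq HT libraries of 1 ng total RNA, per the labels' protocols, an unstranded full-length method with PCR. Per the submitters' processing notes, cutadapt 1.18, STAR 2.5.2a, HTSeq 0.11.0, R 3.5.1, DESeq2 1.20.0 and GRCm38 were used. For the counting options and the annotation release nothing is given in the sources used here. The tally lines for unassigned reads (31.5% to 84.4% of reads) were left out. There were 8 value columns in 2 series tables that match no sample and were not used.

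The counts were analysed in R 4.3.3 with edgeR 4.0.16 (TMM factors, filterByExpr with minimum count 10 and minimum total 15, quasi-likelihood F test, age as the only term, both ages in the fit) and Benjamini-Hochberg adjusted p under 0.05. The SE is the log2 fold change divided by the square root of F. DESeq2 1.42.0 and voom of limma 3.58.1 were alternatives. An exact permutation test of 2 against 2 libraries cannot go below p = 0.333, so none was used. Other scalings, filters, a replicate block, subtraction of the background and leaving out each library were also tried. The edgeR fit was tested on simulated data. Symbols, positions and exon lengths came from GENCODE vM21, which matched 53360 of 53465 genes. Ero1l's promoter was matched as Ero1a. Over 5% of the exon length of Eif2ak3, Ddit3, Sec61a1, Ssr2, Spcs1, Hsp90b1, Manf and Sec23a is shared with another gene, whose reads cannot be told apart without strand.

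The members and lists were chosen with earlier results of these data known. All 54 members are described, with full statistics for those called by a test, up to 10 per direction with the largest log2 fold change among those whose ages did not overlap, and those at 500 CPM or more in some library. Other pathway genes were named by the same order, at most 3 per group and direction with a mean of at least 50 CPM in the higher age. The other pathway genes that reached an unadjusted p under 0.05 are named after their values were seen.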

Additional observations from a re-analysis of the deposited data

How the results depend on the processing

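When all genes with at least 1 count were kept, edgeR called 284 higher and 231 lower in adult (0.624% and 0.508%). With 10 counts required in every library of an age it called 13 and 2 (0.0856% and 0.0132%). DESeq2 called 416 and 1176 on all genes and 610 and 862 on the genes edgeR tested. Leaving out 1 library gave 0 to 247 higher and 0 to 733 lower. Of the secretory genes, DESeq2 called 1 higher on either set (Sec11c), the 1-count filter called 1 lower (Kdelr3), and leaving out 1 library gave 0 to 1 higher and 0 to 2 lower. Secretory genes with both adults above numbered 15 to 37 with 1 library left out, a looser criterion that 30.2% to 35.7% of all tested genes met. Those with both adults below numbered 4 to 28 that way (35.3% to 47% of all genes), 9 with upper-quartile factors (31.1%), 15 with library totals (34.1%), 1 with the 1-count filter (14%), 10 with background subtracted (25.1%) and 15 scaled to the median secretory gene (32.3%). The causes were not tested. The median log2 fold change was -0.054 scaled to the median secretory gene and -0.20 to 0.95 with 1 library left out. The former is levelled by that scaling itself, under which the median of all tested genes was -0.79. Upper-quartile factors, library totals and limma-voom moved the median of all genes by -0.18, -0.38 and 0.18, and scaling to the median secretory gene by -0.55.

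Of the 53 tested genes 28 changed the sign of their log2 fold change in at least 1 alternative and 25 in none. Scaled to the median secretory gene, the signs that changed gave the transcription factor median -0.044, the translocon and signal peptidase median -0.022, the disulfide median -0.27, Creb3l2 -0.044, Ddit3 -0.054, Sec61g -0.45, Calr -0.10, Manf -0.060, Pdia3 -0.10, P4hb -0.069, Ero1l -0.25, Sel1l -0.026 and Edem1 -0.20. With library totals, the signs that changed gave the translocon and signal peptidase median -0.0072, the disulfide median -0.21, Sec61g -0.24, Calr -0.097, Manf -0.050, Pdia3 -0.090, P4hb -0.044, Ero1l -0.17 and Edem1 -0.059. With DESeq2's size factors, the signs that changed gave the disulfide median -0.016. With upper-quartile factors, the signs that changed gave the disulfide median -0.096, Sec61g -0.034, Calr -0.0098 and Ero1l -0.043. With background subtracted, the signs that changed gave the disulfide median -0.10, Calr -0.036 and Pdia3 -0.030. In DESeq2 on the genes edgeR tested, the signs that changed gave the disulfide median -0.016. In limma-voom, the signs that changed gave Spcs1 0.21, Pdia4 0.20 and Lman1 0.23. With the 1-count filter, the signs that changed gave Spcs3 0.091, Pdia4 0.043 and Lman1 0.065. With 10 counts in every library of an age, the signs that changed gave Lman1 0.0059.

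With each library left out in turn, where an age had 1 library its spread was taken from the other age, and the log2 values whose sign changed ranged as follows. These were the transcription factor median -0.27 to 0.95, the translocon and signal peptidase median -0.031 to 1.13, the chaperone and cochaperone median -0.19 to 1.17, the disulfide median -0.53 to 0.72, the coat and cargo receptor median -1.03 to 0.30, Bhlha15 -0.27 to 3.74, Spdef -2.60 to 2.74, Creb3l2 -0.23 to 0.95, Atf4 -1.18 to 0.047 and Sec61g -0.0063 to 0.36. Further ranges were Ssr1 -0.87 to 0.35, Ssr3 -0.79 to 0.44, Ssr4 -0.26 to 1.62, Spcs1 -0.78 to 1.05, Spcs3 -0.85 to 0.45, Hspa5 -0.49 to 0.35, Hsp90b1 -0.074 to 1.47, Calr -0.51 to 1.16, Canx -0.19 to 1.197 and Dnajb11 -0.20 to 1.09. Further ranges were Manf -0.44 to 1.17, Creld2 -0.060 to 2.18, Pdia3 -0.49 to 1.13, Pdia4 -0.56 to 0.81, P4hb -0.37 to 1.09, Ero1l -0.30 to 0.63, Sel1l -0.053 to 0.75, Derl1 -0.071 to 1.32, Sec31a -0.59 to 0.45 and Lman1 -0.57 to 0.93. Further ranges were Kdelr2 -1.82 to 0.14 and the ratio of Ero1l to Ero1lb -1.67 to 0.56. The others kept their sign, at the stress sensor median 0.65 to 1.06, the degradation median 0.10 to 1.03, Atf6 0.91 to 1.14, Ern1 0.46 to 1.81, Eif2ak3 0.019 to 0.89, Xbp1 0.68 to 1.96, Creb3l1 -5.42 to -0.71, Sec61a1 0.19 to 1.22, Sec61b 0.20 to 1.57 and Ssr2 -1.34 to -0.028. The same held for Tram1 0.25 to 1.55, Spcs2 0.45 to 1.85, Sec11c 2.12 to 3.07, Dnajb9 -1.50 to -0.43, Dnajc3 0.51 to 1.03, Sdf2l1 0.55 to 2.31, Hyou1 0.69 to 1.56, Pdia5 -5.11 to -0.081, Pdia6 -1.38 to -0.00069 and Herpud1 0.66 to 1.40. The same held for Syvn1 -0.41 to -0.19, Derl3 0.57 to 5.73, Sec23a -2.74 to -0.81, Sec23b 0.57 to 1.07, Sec24d -2.18 to -0.35, Sar1b 0.84 to 2.58 and Kdelr3 -14.21 to -1.98.

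The numbers 1 and 2 are shared between the ages in the labels only as numbers: the correlation of deviations between same-numbered libraries was -0.059. With the replicate number as a block edgeR called 0 genes, 0 of the 53 among them, the median of the secretory genes was 0.35, and the signs that changed gave Spcs1 0.11, Pdia4 0.12 and Lman1 0.14. Depth was least in pup replicate 1, where low genes such as Bhlha15 and Derl3 did not exceed their expected background.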

Other observations

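Over the 53 tested secretory genes the libraries of an age resembled each other most, by Pearson's r of log2(CPM + 0.5). This r runs across genes, and genes are no replicates. The value was 0.951 between the pups and 0.870 between the adults, while Spearman's rho was 0.948 between the pups and 0.952 between the adults. Adult replicate 1 had 0.733 and 0.734 with pup replicates 1 and 2, and adult replicate 2 had 0.856 and 0.842. Over all tested genes r was 0.862 between the adults. There the pups (0.8129) were no closer to each other than pup replicate 2 was to adult replicate 2 (0.8133). The other pairs across the ages had 0.657 to 0.765. Of the 53 genes 35 were lowest in pup replicate 1 and 14 in adult replicate 1, whereas 27 were highest in pup replicate 2 and 18 in adult replicate 2. The shares of all tested genes with these extremes were not counted, so the counts are not read as particular to the secretory genes.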
